A study of Mus musculus with 9 samples.

Results

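The 6 genes described here encode semaphorin 3F (Sema3f), its neuropilin co-receptors (Nrp1 and Nrp2) and 3 plexin receptors (Plxna1, Plxna4 and Plxnb2). They are 6 of the 19305 genes listed in either of the 2 deposited tables. They were picked by name with earlier results of the same comparisons known, among them how Sema3f and Plxna4 behaved, so their own differences are given as a description and without a test. The study asked how T helper cells act on lung cancer cells. LLC1, a mouse Lewis lung carcinoma line, was cultured for 24 h in direct contact with T cells, at 1 T cell for each LLC1 cell. There were 3 groups of 3 libraries: LLC1 cells kept with Th9 cells, LLC1 cells kept with Th17 cells, and LLC1 cells kept with Th0 cells. After the culture, cells carrying CD4 were removed by sorting, and the total RNA of what remained was sequenced. The T cell subsets were generated in culture, every group carried T cells, and LLC1 cells without T cells were not analysed here. LLC1 is 1 line, and nothing in the labels says that replicates came from separate cultures. The p-values below therefore cover only how much these samples varied, and that variation may be technical.

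Class 3 semaphorins are secreted proteins best known for steering axons and for restraining vessels and migrating cells. They bind a neuropilin, and the neuropilin works with an A-type plexin, whose intracellular part acts on small GTPases and so on the actin cytoskeleton and on adhesion. Semaphorin 3F binds NRP2 with preference and semaphorin 3A binds NRP1, and both neuropilins also bind VEGF. Plexin B2 answers mainly class 4 semaphorins without a neuropilin. In human lung cancer SEMA3F is known from a region of the short arm of chromosome 3 that is often deleted.

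The promoters of the 2 neuropilin genes are shown because the level of Nrp2 and that of Nrp1 moved apart in Th9 libraries, as described below. Both come from RefSeq on GRCm38.p6, which held windows for 3 of the 6 genes, and both are printed 5′ to 3′ on the plus strand, without bases of an annotated exon. Capitals mark GC boxes, the letters GGGCGG on either strand, which Sp1 family factors can bind. The Nrp2 stretch is chr1:62703067-62703284 and ends at the base before the first annotated exon. The Nrp1 stretch is chr8:128358823-128359072, which GENCODE M21 places in the first intron of a retained-intron transcript that starts further upstream.
Nrp2: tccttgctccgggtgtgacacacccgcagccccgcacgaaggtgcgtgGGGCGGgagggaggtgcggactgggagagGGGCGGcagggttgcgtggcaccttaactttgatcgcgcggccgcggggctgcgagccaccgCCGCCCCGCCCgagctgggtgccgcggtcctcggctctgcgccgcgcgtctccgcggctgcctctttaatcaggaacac
Nrp1: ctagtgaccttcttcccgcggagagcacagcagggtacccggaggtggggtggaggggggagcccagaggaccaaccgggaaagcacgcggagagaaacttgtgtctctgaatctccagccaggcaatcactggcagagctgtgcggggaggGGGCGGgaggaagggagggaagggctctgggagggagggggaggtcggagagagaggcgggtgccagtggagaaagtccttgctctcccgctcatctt
The 218 bases of Nrp2 were 72.5% G or C with 28 CpG pairs and 4 GC boxes, 2 of which overlap on the minus strand. The 250 bases of Nrp1 were 64.4% G or C with 11 CpG pairs and 1 GC box. A GC box was present in 28.2% of all RefSeq promoter windows cut to 218 bases and in 32.7% of those of 250 bases. On either strand, neither stretch held the E-box CAGGTG or the AP-1 letters TGANTCA, nor the kappa B motif. CAGGTG was present in 15.4% of all windows of 218 bases and in 17.2% of those of 250 bases. TGANTCA was present in 6.05% and 6.75% of them, and the kappa B motif in 3.43% and 3.9%.

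The 9 libraries held about 12718971 to 17504907 reads on genes. Th0 replicate 1 stood apart: 31.1% of its values lay on mt-Rnr1, mt-Rnr2 and Gm26917, compared with 16.1 to 18.6% in Th9 libraries, 20.7 to 21.8% in Th17 libraries and 16.6% and 14.9% in Th0 replicates 2 and 3. Both comparisons use the same 3 Th0 libraries, in tables that were normalized separately. Differences of the 6 genes and of the list without Th0 replicate 1 are given where a call or a sign changed or a value moved clearly. RNA of T cells was left in the Th9 libraries: of 18 T cell markers listed, 14 were tested, 12 were higher and none was lower by limma at an adjusted p under 0.05 (13 and 0 at an unadjusted p under 0.05). Their summed level was 1269 to 1800 in Th9 libraries and 92 to 195 in Th0 libraries, with Cd3g at 352, 346 and 254 in Th9 and at 8, 5 and 2 in Th0, Cd3e at 86, 61 and 54 against 5, 3 and 2, and Ptprc at 551, 447 and 401 against 51, 25 and 6. In the table with Th17, 12 of the 18 markers were listed, with a sum of 66 to 93 in Th17 libraries and 90 to 185 in Th0 libraries. Cd3g had 0, 1 and 0 in Th17 libraries against 8, 5 and 2 in Th0 libraries, Ptprc had 8, 7 and 1 against 52, 25 and 7, and Cd3e was not listed there. Cd5, Cd247 and Cd4 held most of what was left in Th17 libraries, with Cd5 at 26, 14 and 26 against 35, 30 and 33 in Th0 libraries. B cell markers summed to 84 to 99 in Th9 libraries, against 81 to 287 in Th0 libraries, with Igkc lower (log2 difference -2.66, limma adjusted p = 0.0065). They summed to 12 to 18 in Th17 libraries, against 83 to 295 in Th0 libraries, with Ighm (-4.59, limma adjusted p = 0.0029) and Igkc (-3.39, 0.0338) lower. Myeloid markers summed to 208 to 263 in Th9 libraries, against 167 to 311 in Th0 libraries. Of 4 tested with Th9, 1 was lower (Lyz2, -3.36, limma adjusted p = 0.00163) and 1 higher (Cd14, 0.86, 0.0135). In Th17 libraries the myeloid markers summed to 163 to 187, against 170 to 321 in Th0 libraries. Of the markers of lung epithelium, Epcam, Cdh1 and Nkx2-1 were not listed in either table, while the keratins Krt8 and Krt18 were abundant. Krt8 had 956, 1050 and 1255 in Th9 libraries and 1688, 2470 and 2282 in Th0 libraries (-0.97, limma adjusted p = 0.000316), and Krt18 had 3031, 3315 and 3452 in Th9 libraries and 3215, 4500 and 4636 in Th0 libraries (-0.32, 0.0899). The mesenchymal markers Vim, Cdh2, Fn1 and Col3a1 summed to 91315 to 96263 in Th9 libraries and 96930 to 124421 in Th0 libraries, and of the 4 Col3a1 was lower (-1.37, limma adjusted p = 2.6e-06). Endothelial markers, of interest because neuropilins are abundant on vessels, summed to 30 to 49 in Th9 libraries, against 5 to 13 in Th0 libraries, and to 5 to 7 in Th17 libraries, against 6 to 13 in Th0 libraries. Most of the sum in Th9 libraries was Pecam1, at 42, 28 and 33 against 13, 5 and 11 in Th0 libraries (1.80, limma adjusted p = 0.0037). Cdh5 had 7, 2 and 2 against 0, 0 and 0, and Kdr, Tek and Emcn were not listed. In RNA of mixed cells, fewer cells of a type and less RNA per cell cannot be told apart.

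Sema3f (ENSMUSG00000034684, chr9:107681500-107710475 on the minus strand of GRCm38) encodes the ligand. Its normalized counts were 39, 50 and 49 in Th9 libraries and 129, 128 and 131 in Th0 libraries. Every Th9 library lay below every Th0 library, and the Th0 libraries differed among themselves by less than the Th9 libraries did. The means were 46.0 ± 6.08 in Th9 and 129 ± 1.53 in Th0 (SD, n = 3 each), a log2 difference of -1.48 with a standard error of 0.16, or 2.79-fold lower. Log2 differences and folds are differences between group means of log2(value + 1), so they understate changes of low genes. This difference was the 82nd from the lowest of 14475 genes tested. The values stood on about 42, 51 and 50 reads in Th9 libraries and 112, 140 and 123 reads in Th0 libraries.

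Sema3f was also lower in Th17 libraries, where it had normalized counts of 64, 69 and 80, against 132, 131 and 134 in the Th0 libraries of that table. The groups again did not overlap. The means were 71 ± 8.19 in Th17 and 132 ± 1.53 in Th0 (SD, n = 3 each), a log2 difference of -0.89 with a standard error of 0.14, or 1.86-fold lower. It was the 93rd from the lowest of 14342 genes tested. Sema3f was thus below Th0 both in Th9 libraries, where T cell markers were higher than in Th0, and in Th17 libraries, where their sum was 66 to 93 against 90 to 185 in Th0. The B cell marker Igkc was lower with both and Ighm with Th17. Of the myeloid markers, Lyz2 was lower and Cd14 higher with Th9. The part of other cells' RNA in the Sema3f differences was not tested. Without Th0 replicate 1 the log2 differences were -1.48 in Th9 and -0.90 in Th17. The 2 comparisons share their Th0 libraries, and whether the Th9 and Th17 differences differ was not tested.

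Nrp2 (ENSMUSG00000025969, chr1:62703285-62818695, plus strand), the co-receptor that semaphorin 3F prefers, had normalized counts of 2287, 2334 and 2450 in Th9 libraries and 1531, 1674 and 1569 in Th0 libraries. All Th9 libraries were above all Th0 libraries. The means were 2357 ± 83.9 in Th9 and 1591 ± 74.1 in Th0 (SD, n = 3 each), a log2 difference of 0.57 with a standard error of 0.08, or 1.48-fold higher. In the other table Nrp2 had 1476, 1504 and 1508 in Th17 libraries and 1575, 1710 and 1610 in Th0 libraries. There every Th17 library was below every Th0 library, by a log2 difference of -0.12 with a standard error of 0.07. Ligand and co-receptor thus lay on opposite sides of Th0 in Th9 libraries and on the same side in Th17 libraries.

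Nrp1 (ENSMUSG00000025810, chr8:128358604-128503363, plus strand), the co-receptor for semaphorin 3A and VEGF, had normalized counts of 252, 269 and 268 in Th9 libraries and 277, 415 and 387 in Th0 libraries. The Th9 libraries lay below all Th0 libraries, of which replicate 1 was the nearest. The log2 difference was -0.43 with a standard error of 0.14, and -0.61 without Th0 replicate 1. In Th17 libraries Nrp1 had 394, 375 and 424, within the 285, 424 and 397 of the Th0 libraries. That log2 difference was 0.13 with a standard error of 0.14, and it changed sign, to -0.047, without Th0 replicate 1.

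Plxna4 (ENSMUSG00000029765, chr6:32144268-32588192, minus strand), an A-type plexin best known as part of the semaphorin 3A receptor, stood furthest from Th0 among the 6 genes in Th9 libraries. Its normalized counts were 704, 650 and 686 in Th9 libraries and 139, 176 and 134 in Th0 libraries. The lowest Th9 library was more than 3 times the highest Th0 library. The means were 680.0 ± 27.5 in Th9 and 150 ± 22.9 in Th0 (SD, n = 3 each), a log2 difference of 2.19 with a standard error of 0.12, or 4.55-fold higher, the 176th from the highest of all genes tested. In Th17 libraries Plxna4 had 173, 173 and 161, against 143, 179 and 138 in Th0 libraries. These groups overlapped, with a log2 difference of 0.15 and a standard error of 0.13.

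Plxna1 (ENSMUSG00000030084, chr6:89316314-89362620, minus strand), the more abundant of both A-type plexins per kilobase, showed small differences. It had normalized counts of 1173, 1190 and 1259 in Th9 libraries and 1423, 1328 and 1247 in Th0 libraries, which overlapped, with a log2 difference of -0.14 and a standard error of 0.08. In Th17 libraries it had 1456, 1470 and 1383, and in their Th0 libraries 1464, 1357 and 1280. These overlapped too, with a log2 difference of 0.07 and a standard error of 0.08.

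Plxnb2 (ENSMUSG00000036606, chr15:89155549-89171120, minus strand), a receptor for class 4 semaphorins, had the highest level per kilobase of the 6. Its normalized counts were 4051, 3930 and 4375 in Th9 libraries and 4437, 4810 and 5030 in Th0 libraries. It had 3958, 4081 and 4131 in Th17 libraries and 4564, 4914 and 5162 in the Th0 libraries of that table. The groups did not overlap in either table, and the log2 differences were small, at -0.21 with a standard error of 0.09 in Th9 and -0.26 with a standard error of 0.08 in Th17.

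**Figure D1:**
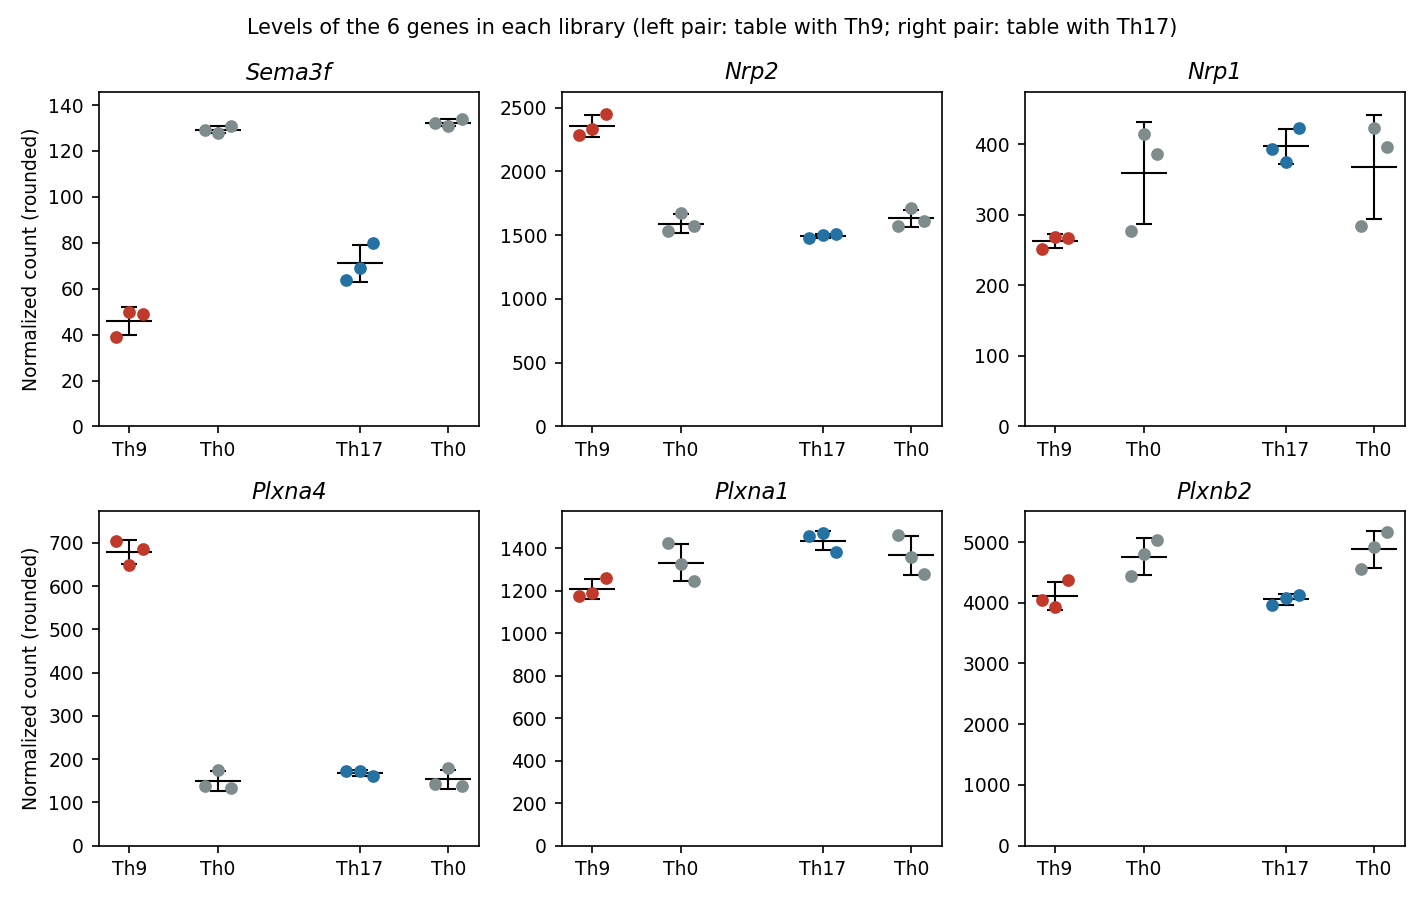
Normalized counts (linear axis from 0) of the 6 genes in each library, with points for libraries and black bars for the mean and SD of 3. In each panel the left pair is Th9 and Th0 in one table and the right pair Th17 and Th0 in the other. Sema3f sits at 39 to 50 in Th9 and 64 to 80 in Th17, against 128 to 134 in Th0, and Plxna4 at 650 to 704 in Th9 against 134 to 176 in Th0.

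All 6 genes passed the filter on low values in both tables. In Th9 libraries 2 were above all Th0 libraries (Nrp2 and Plxna4), 3 were below (Sema3f, Nrp1 and Plxnb2) and 1 overlapped. Among all genes tested, the groups did not overlap for 40.6%, with 21.4% above and 19.2% below. In Th17 libraries none was above, 3 were below (Sema3f, Nrp2 and Plxnb2) and 3 overlapped, while 23.4% of all genes tested did not overlap, 12.8% above and 10.6% below. Since the genes were picked with these comparisons known, nothing is read from these counts. The log2 differences ran between -1.48 and 2.19 in Th9 and between -0.89 and 0.15 in Th17, around medians of -0.01 and -0.00 over all genes tested.

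**Figure D2:**
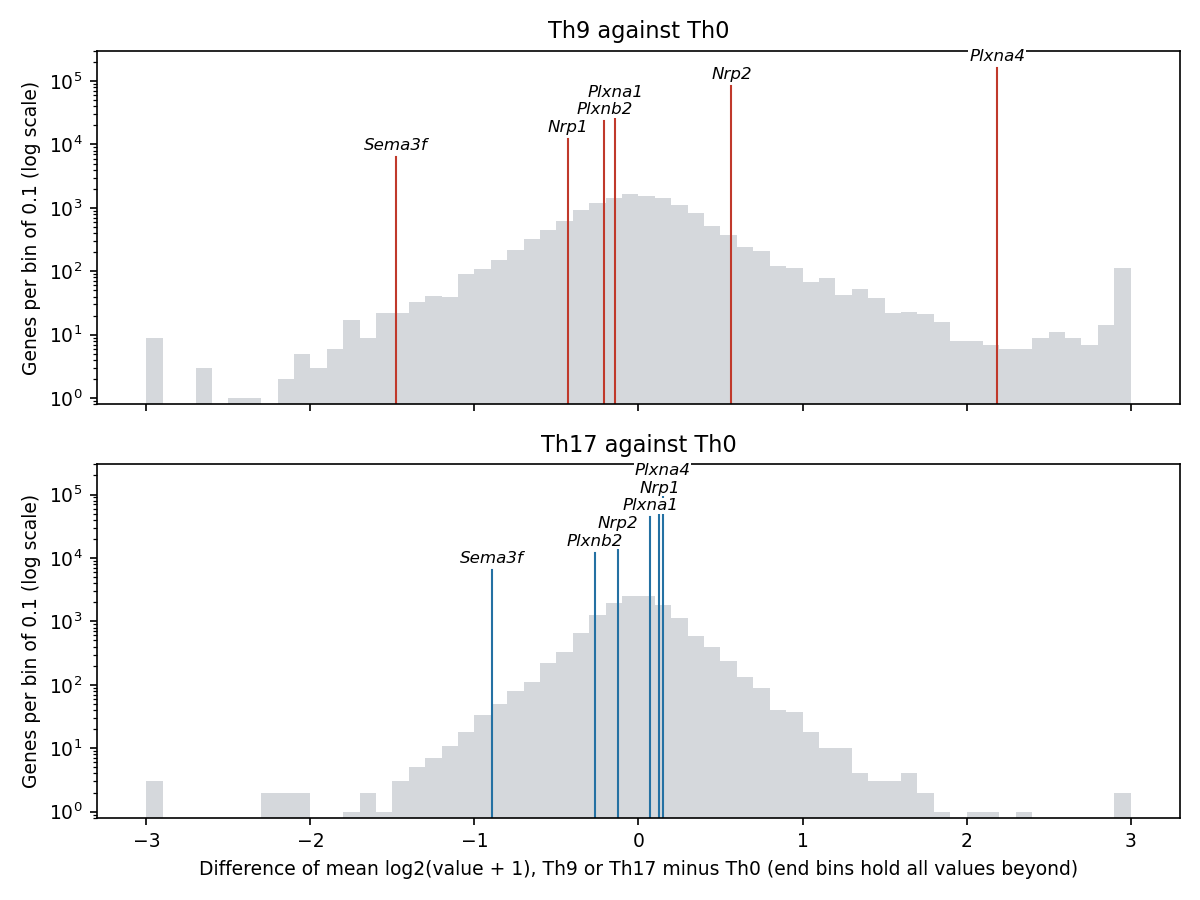
Number of genes (log axis) per bin of 0.1 of the log2 difference, Th9 minus Th0 above and Th17 minus Th0 below, with vertical lines for the 6 genes. Sema3f (-1.48) and Plxna4 (2.19) lie in the tails with Th9, while with Th17 Sema3f (-0.89) alone of the 6 lies away from the centre.

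Levels per kilobase of exon, which can be compared between genes, placed Plxnb2 first in every group, at 534 in Th9, 525 in Th17 and 616 and 632 in the Th0 libraries of the 2 tables. In Th9 libraries Nrp2 (199) came next, then Plxna1 (133), Plxna4 (48.2), Nrp1 (26.9) and Sema3f (8.85), with no overlap between neighbours. In Th17 libraries the order after Plxnb2 was Plxna1 (159), Nrp2 (126), Nrp1 (40.6), Sema3f (13.7) and Plxna4 (12.0). The last pair there touched, at 12.3 to 15.4 for Sema3f and up to 12.3 for Plxna4. In the Th0 libraries of the table with Th9 it was Plxna1 (147), Nrp2 (134), Nrp1 (36.8), Sema3f (24.9) and Plxna4 (10.6), and the ranges of Plxna1 and Nrp2 overlapped. Plxna4 was thus the lowest of the 6 in Th0 and Th17 libraries, while Sema3f was the lowest in Th9 libraries. For Plxnb2 the exon length came from GENCODE M21, which ends the gene at 89180788, against 89171120 in the deposited annotation. Its level per kilobase is therefore less certain than those of the others.

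Ratios within a library do not depend on how the table was scaled. Per kilobase, Nrp2 stood 7.50, 7.17 and 7.55 times as high as Nrp1 in Th9 libraries and 4.57, 3.33 and 3.35 times in Th0 libraries. The Th17 libraries, at 3.10, 3.31 and 2.94, lay just below the Th0 libraries. Plxna4 stood at 0.385, 0.351 and 0.350 of Plxna1 in Th9 libraries, against 0.0627, 0.0851 and 0.0690 in Th0 libraries. Within the class 3 semaphorins, Sema3f made 1.46, 1.79 and 1.63% of their summed level per kilobase in Th9 libraries and 5.43, 4.18 and 4.60% in Th0 libraries. It made 2.18, 2.30 and 2.69% in Th17 libraries, against 5.40, 4.18 and 4.58% in the Th0 libraries of that table. The summed level itself overlapped between groups, at 514 to 579 per kilobase in Th9 and 457 to 590 in Th0, and at 564 to 577 in Th17 and 470 to 603 in Th0.

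**Figure D3:**
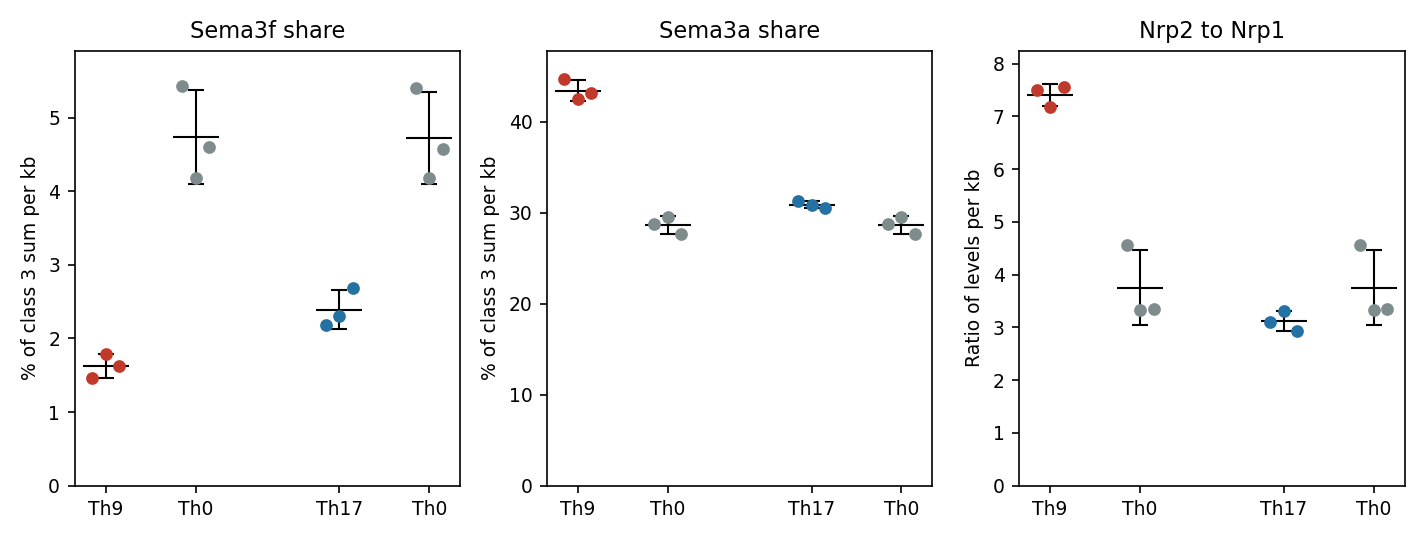
Share of Sema3f and of Sema3a in the summed level per kilobase of class 3 semaphorins (percent), and the ratio of Nrp2 to Nrp1 per kilobase, one point per library with mean and SD of 3 (Th9 with its Th0, then Th17 with its Th0). The Sema3f share is 1.46 to 1.79% in Th9 and 2.18 to 2.69% in Th17, against 4.18 to 5.43% in Th0, and the ratio is 7.17 to 7.55 in Th9 against 3.33 to 4.57 in Th0.

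The other genes of the pathway were read from a list of 78 genes in 7 roles. In the table with Th9, 69 were listed and 65 tested, of which 18 were higher (27.7%) and 4 lower (6.15%) at an adjusted p under 0.05 by limma with Benjamini-Hochberg adjustment over all genes tested. Over all genes tested 25.2% passed, 13.4% higher and 11.9% lower. The 18 higher genes include Sema4a, which passed the filter on low values only through its Th9 libraries. The median log2 difference of the list was 0.07, against -0.01 over all genes. The count of higher genes fell to 8 without Th9 replicate 1, 11 without Th9 replicate 2 and 9 without Th9 replicate 3, and the count of lower genes was 13 without Th0 replicate 1. In the table with Th17, 68 were listed and 63 tested, with 1 higher and 0 lower by limma (8 and 2 at an unadjusted p under 0.05), against 1.58% of all genes tested that passed, 1.19% higher and 0.39% lower. Leaving out Th0 replicate 1 gave 3 higher and 4 lower genes of the list with Th17, and 974 and 1378 of all genes, while leaving out any 1 Th17 library or Th0 replicate 3 gave 0 of the list and at most 54 and 8 of all genes. The T cell markers above were higher in the same Th9 libraries, and their part in these counts was not tested.

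Of the other class 3 ligands, 4 were tested with Th9, 1 was higher and 1 lower. Sema3a, the repellent ligand that signals through NRP1, had normalized counts of 3182, 3161 and 3464 in Th9 libraries and 1822, 2416 and 2101 in Th0 libraries. It rose by a log2 difference of 0.64 (standard error 0.10, limma adjusted p = 0.000839), with all Th9 libraries above all Th0 libraries. Sema3c, which can signal through both neuropilins, had 29, 30 and 46 in Th9 libraries and 62, 98 and 94 in Th0 libraries, and was lower by a log2 difference of -1.25 (standard error 0.24, limma adjusted p = 0.00275). Both calls held when any 1 library was left out. Sema3e, the ligand of plexin D1 and the other abundant class 3 semaphorin, had a log2 difference of -0.21 (limma adjusted p = 0.177), which was -0.33 (0.000884) without Th0 replicate 1. Sema3b, 72.3 kb from Sema3f on chromosome 9, had a log2 difference of -0.18 (limma adjusted p = 0.566). Sema3d and Sema3g were too low to test.

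Per kilobase, Sema3a made 44.6, 42.4 and 43.1% of the class 3 sum in Th9 libraries and 28.7, 29.5 and 27.6% in Th0 libraries, and 31.2, 30.8 and 30.5% in Th17 libraries. Its level was 30.6, 23.7 and 26.5 times that of Sema3f in Th9 libraries and 5.29, 7.07 and 6.01 times in Th0 libraries. In Th17 libraries it was 14.3, 13.4 and 11.4 times, against 5.32, 7.06 and 6.03 times in Th0 libraries of that table. Sema3e made 50.9 to 52.4% of the sum in Th9 libraries and 60.3 to 62.5% in Th0 libraries. With Th17 no other class 3 semaphorin passed the test: the log2 differences were 0.18 for Sema3a (limma adjusted p = 0.356), -0.18 for Sema3b (0.708), 0.06 for Sema3c (0.898) and 0.09 for Sema3e (0.690). Without Th0 replicate 1 the signs of Sema3c (-0.14) and Sema3e (-0.03) turned. With any 1 library left out, the Th17 differences ranged over 0.08 to 0.28 for Sema3a and over -0.36 to -0.04 for Sema3b.

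Of the 10 semaphorins of other classes tested with Th9, 4 were higher and 1 lower. Sema4b, a membrane-bound class 4 semaphorin, had 729, 721 and 753 in Th9 libraries and 376, 374 and 359 in Th0 libraries, a log2 difference of 0.99 (standard error 0.08, limma adjusted p = 7.19e-06). Sema6d, a ligand of plexin A1 in heart and immune cells, had 730, 738 and 764 in Th9 libraries and 498, 539 and 507 in Th0 libraries, a log2 difference of 0.53 (limma adjusted p = 0.000595). Sema4c, a ligand of plexin B2, had 431, 421 and 399 in Th9 libraries and 556, 528 and 618 in Th0 libraries, a log2 difference of -0.44 (limma adjusted p = 0.00463), and with every library scaled to the same total its adjusted p was 0.0696. The plexin B2 receptor and this ligand were thus both below Th0 in Th9 libraries. The other 2 higher genes had low levels and are known from lymphocytes. Sema4d, a plexin B1 ligand that T cells carry, had 69, 73 and 42 in Th9 libraries and 26, 26 and 24 in Th0 libraries (log2 difference 1.20, limma adjusted p = 0.00385). Sema4a had 21, 15 and 13 against 6, 3 and 3 (1.82, limma adjusted p = 0.00939). With a mean of 16.3 in Th9 and 4 in Th0, Sema4a passed the filter of 10 only through its Th9 libraries. Without any 1 Th9 library it fell below the filter and was not tested, so nothing is read from its call. The T cell markers were higher in the same Th9 libraries, and their part in the differences of Sema4d and Sema4a was not tested.

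The other 5 did not pass, with log2 differences of 0.15 for Sema4g (limma adjusted p = 0.413), -0.17 for Sema5a (0.228), -0.00 for Sema6b (0.995), -0.40 for Sema6c (0.283) and -0.53 for Sema7a (0.156). With Th17, Sema5a was the 1 gene of the whole list that passed. It had 467, 485 and 469 in Th17 libraries and 322, 371 and 357 in Th0 libraries, a log2 difference of 0.44 (standard error 0.09, limma adjusted p = 0.0343). This call was lost without any 1 of the 3 Th17 libraries or without Th0 replicate 3, the adjusted p reaching 0.199 without Th17 replicate 2, and with every library scaled to the same total it was 0.120. The other log2 differences with Th17 were 0.19 for Sema4b (limma adjusted p = 0.256), -0.05 for Sema4c (0.805), -0.49 for Sema4d (0.384), -0.14 for Sema4g (0.591), -0.21 for Sema6b (0.414), -0.01 for Sema6c (0.983; 0.10 without Th0 replicate 1), 0.20 for Sema6d (0.218) and -0.08 for Sema7a (0.875).

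None of the 6 other plexins passed the test in either comparison by limma (1 higher and 2 lower at an unadjusted p under 0.05 with Th9, and 0 higher and 1 lower with Th17). With Th9 the log2 differences were -0.29 for Plxna2 (limma adjusted p = 0.0685), 0.01 for Plxna3 (0.982), 0.42 for Plxnb1 (0.0773), 0.43 for Plxnb3 (0.444), 0.09 for Plxnc1 (0.849) and -0.20 for Plxnd1 (0.116). Without Th0 replicate 1, Plxnc1 stood at 0.45 and Plxna3 at 0.20 (limma adjusted p = 0.161 and 0.167). Plxnb1, the receptor of semaphorin 4D, passed then (0.47, limma adjusted p = 0.0394). With Th17 they were 0.05 for Plxna2 (limma adjusted p = 0.836), 0.06 for Plxna3 (0.882), -0.14 for Plxnb1 (0.734), 0.62 for Plxnb3 (0.411), -1.07 for Plxnc1 (0.128) and -0.05 for Plxnd1 (0.783), and without Th0 replicate 1 -0.73 for Plxnc1 (0.0939) and 0.26 for Plxna3 (0.103). Plxnd1, the receptor of Sema3e, averaged 514 in Th9 libraries and 589 in Th0 libraries.

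**Figure D4:**
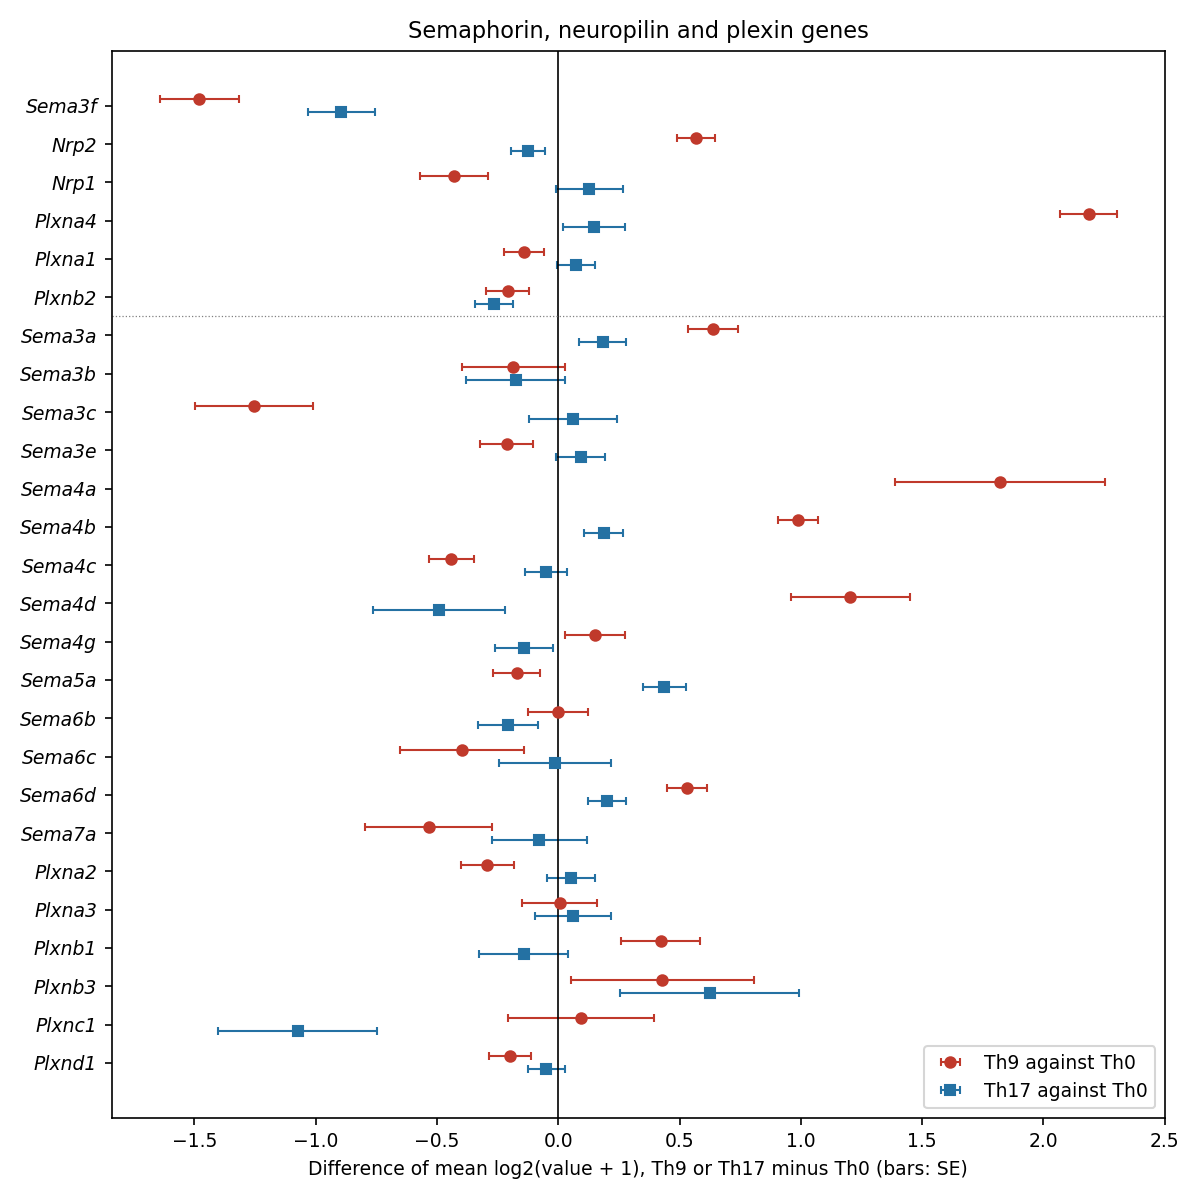
Log2 differences with standard errors, Th9 minus Th0 (circles) and Th17 minus Th0 (squares), for the 6 genes above the dotted line and the other semaphorins and plexins tested below it. Plxna4 (2.19), Sema4a (1.82) and Sema4d (1.20) are highest and Sema3f (-1.48) and Sema3c (-1.25) lowest with Th9, while with Th17 Plxnc1 (-1.07) and Sema3f (-0.89) are lowest and Plxnb3 (0.62) and Sema5a (0.44) highest. Sema4a passed the filter on low values only through its Th9 libraries.

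Among 6 tested VEGF ligands and receptors, which share neuropilins with the semaphorins, 2 were higher with Th9 and 0 lower (3 and 0 at an unadjusted p under 0.05). Vegfa, the main angiogenic ligand of NRP1 and NRP2, had normalized counts of 3222, 3112 and 2995 in Th9 libraries and 1976, 1792 and 1830 in Th0 libraries, a log2 difference of 0.74 (limma adjusted p = 5e-05). All Th9 libraries were above all Th0 libraries. With Th17 its log2 difference was 0.01 (limma adjusted p = 0.943). Flt1, VEGF receptor 1, averaged 859 ± 13.1 in Th9 and 696 ± 59.4 in Th0 (SD, n = 3 each), a log2 difference of 0.31 (limma adjusted p = 0.0236). That call was lost without any 1 Th9 library or without Th0 replicate 3, the adjusted p reaching 0.0977 without Th9 replicate 2. Of the 5 receptor partners tested, 1 was higher: Met, a receptor tyrosine kinase that associates with B-type plexins, had a log2 difference of 0.37 (limma adjusted p = 0.0142), lost without any 1 Th9 library (up to 0.0667 without Th9 replicate 3).

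Downstream of the plexins, 10 of 31 tested signalling genes were higher with Th9 and 1 was lower. Rnd1, a small GTPase that binds the intracellular part of A-type and B-type plexins, had normalized counts of 139, 145 and 143 in Th9 libraries and 25, 27 and 22 in Th0 libraries. It was 5.60-fold higher, a log2 difference of 2.49 (standard error 0.17, limma adjusted p = 1.5e-06), and in Th17 libraries it had 23, 15 and 19 against 26, 28 and 23 in Th0 libraries (-0.43, limma adjusted p = 0.425). Rras, a GTPase that plexins inactivate, averaged 323 ± 18.0 in Th9 and 223 ± 39.5 in Th0, a log2 difference of 0.54 (limma adjusted p = 0.00918). The MICAL proteins, which bind plexins and oxidise actin, did not move as one: Mical2 averaged 407 ± 45.2 in Th9 and 226 ± 20 in Th0 (0.84, limma adjusted p = 0.000245), while Mical3 averaged 803 ± 81.4 in Th9 and 1107 ± 87.4 in Th0 (-0.46, limma adjusted p = 0.00433). The calls of Rnd1, Rras and Mical2 held without any 1 library, as did that of Mical3, which was lost with every library scaled to the same total (0.0528).

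The other 7 higher signalling genes had log2 differences of 0.30 to 0.49 and each lost its call without at least 1 library. They were Mical1 (0.40, limma adjusted p = 0.0275, up to 0.112 without Th9 replicate 1), the collapsin response mediator Crmp1 (0.49, 0.0211, up to 0.0930 without Th9 replicate 2), the Src family kinase Fyn (0.37, 0.0111, and 0.0686 without Th9 replicate 1), the GTPases Mras (0.41, 0.0421, up to 0.159 without Th9 replicate 2) and Rap1b (0.34, 0.0326, up to 0.111 without Th9 replicate 2), and the kinases Abl2 (0.31, 0.0180, up to 0.0959 without Th9 replicate 1) and Gsk3b (0.30, 0.0191, up to 0.0943 without Th9 replicate 2). Mical1 also lost it without Th9 replicate 3 and without Th0 replicate 2 or 3, Abl2 without Th9 replicate 3, Gsk3b without either of the other Th9 libraries, and Crmp1, Mras and Rap1b without either of the other Th9 libraries or Th0 replicate 3. Rhoa, the GTPase that drives contraction and a gene chosen for mention after its values were seen, had 2722, 2837 and 3252 in Th9 libraries and 2758, 4546 and 4357 in Th0 libraries. Its log2 difference of -0.37 (limma adjusted p = 0.106) was -0.60 (3.28e-06) without Th0 replicate 1. Of 3 tested proteases that can cleave class 3 semaphorins, Pcsk7 was lower (-0.52, limma adjusted p = 0.0102), which was lost without Th9 replicate 2 (0.0608).

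**Figure D5:**
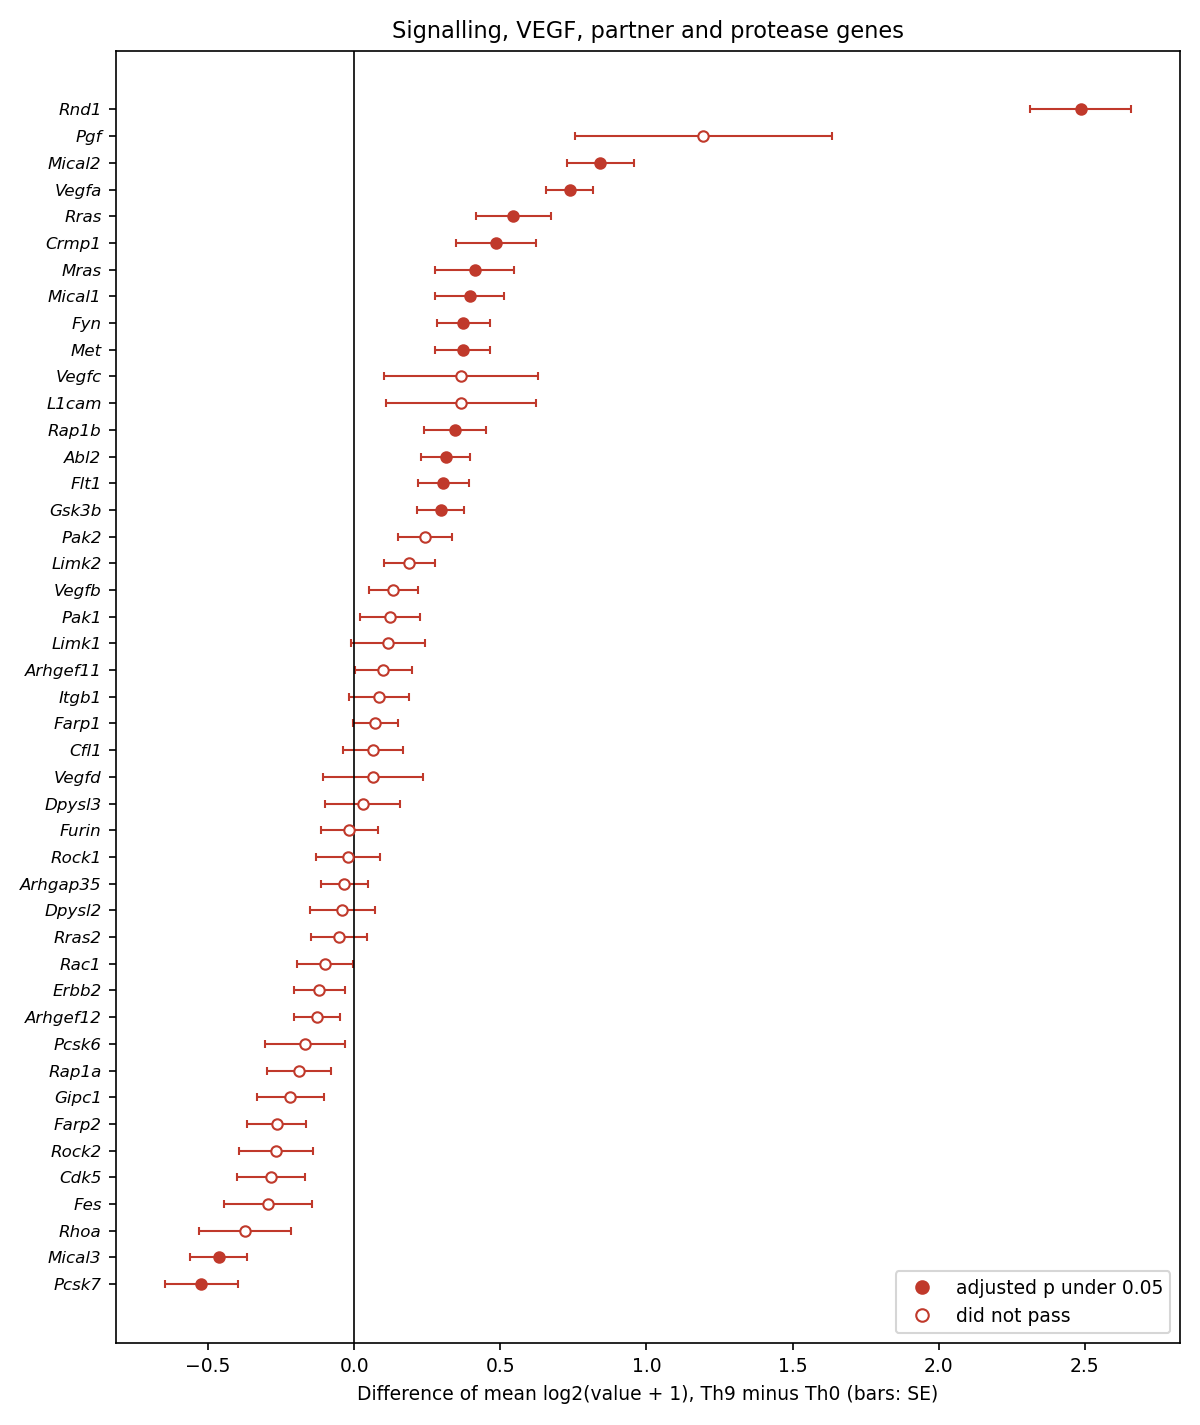
Log2 differences with standard errors, Th9 minus Th0, for the tested signalling, VEGF, partner and protease genes of the list, sorted by size, with filled points where the adjusted p was under 0.05. Rnd1 (2.49) stands apart at the top, followed among the filled points by Mical2 (0.84) and Vegfa (0.74), and the filled points below 0 are Mical3 (-0.46) and Pcsk7 (-0.52).

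For each of the 6 genes, the 2 well expressed genes with the most similar profile over the 9 libraries were found by Euclidean distance of log2 values relative to Th0, among 9525 genes. For Sema3f they were Emilin1 (distance 0.92) and Col5a1 (0.96), genes of extracellular matrix proteins, against a median distance of 3.05. Their log2 differences were -1.21 and -1.36 with Th9 and -0.46 and -0.40 with Th17, less than that of Sema3f with Th17. For Plxna4 they were Trib3 (0.466) and Nfkbia (0.485), against a median of 3.83. Trib3, a stress-induced pseudokinase, and Nfkbia, which encodes an inhibitor of NF-kappa B, had log2 differences of 2.01 and 2.25 with Th9 and 0.19 and 0.09 with Th17. For Nrp2 they were Utp14a (0.138) and Smtn (0.192), against a median of 1.13, and for Nrp1 Anxa1 (0.194) and Esr1 (0.205), against 1.02. For Plxna1 they were Cdk16 (0.120) and Etaa1 (0.129), against 0.681, and for Plxnb2 Cdc42bpb (0.0856) and Gtf3c1 (0.112), against 0.797. A distance of this kind is a description of these libraries.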

How the data were processed

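RNA was made into libraries with a stranded total RNA kit from 1 µg of RNA, per the labels' protocols. The submitters' processing notes name STAR 2.4.0a, featureCounts 1.4.5-p1 of Subread, DESeq2 1.62 and the builds mm10 and GRCm38, and whether counting used strand is not given in the sources used here. The deposited values are whole numbers and are treated as a score: the authors' normalized counts, apparently divided by a size factor per library and rounded, in 2 tables (Th9 with Th0, Th17 with Th0) that share the Th0 libraries. Approximate read totals were recovered from steps in the low values, and because the normalized values are rounded no count model was used.

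Genes whose values averaged 10 or more in the 6 libraries of a table were tested with limma 3.58.1 (lmFit, eBayes with trend, R 4.3.3) on log2(value + 1), with Benjamini-Hochberg adjustment over all genes tested and a threshold of 0.05. The script was tested on simulated data first. Tests cover 14475 genes with Th9 and 14342 with Th17, and none was made between Th9 and Th17 libraries, since their tables were normalized separately. The genes, lists, tests and alternatives were chosen with earlier results of these data known. Named from the list are genes called with a mean of at least 50 (Sema4a and Sema4d are semaphorins named below that), every other tested semaphorin and plexin, and for each of the 6 genes the 2 nearest in pattern. Levels per kilobase use the union of GENCODE M21 exons. Precision is limited by 3 libraries a group and, for Sema3f, by its low reads.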

Additional observations from a re-analysis of the deposited data

Results flagged for a closer look

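For 3 genes all 3 Th9 libraries lay on one side of the Th0 libraries and all 3 Th17 libraries on the other. Among all genes tested, the groups did not overlap for 40.6% with Th9 and 23.4% with Th17. The share of all genes on opposite sides is not given here, so nothing is read from this count. Whether the Th9 and Th17 differences differ was not tested, because the tables were normalized separately and share the Th0 libraries. Nrp2, the co-receptor of semaphorin 3F, had log2 differences of 0.57 with Th9 and -0.12 with Th17. Mical1, an actin-oxidising partner of plexins, had 0.40 and -0.18, of which the Th17 difference did not pass the test. Sema5a, a membrane-bound semaphorin, had -0.17 with Th9, which did not pass (limma adjusted p = 0.228), and 0.44 with Th17. The Th17 difference of Nrp2 and the Th9 difference of Sema5a are small beside those on the other side.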

How the results depend on the processing

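The alternatives were a pseudocount of 0.5, no filter on low values, a mean of at least 50, TMM scaling, the same total per library with and without the 3 RNA genes, array weights, a replicate block and leaving out each library. For the 6 genes, 71 of 72 values without 1 library kept their sign. The exception was Nrp1 with Th17, which ranged over -0.047 (without Th0 replicate 1) to 0.24 (without Th0 replicate 2). With Th9, 2 genes kept their sign but moved by more than their standard error. Nrp1 went from -0.43 (standard error 0.14) to -0.61 without Th0 replicate 1. Plxna4 went from 2.19 (standard error 0.12) to 2.31 without Th0 replicate 2. The same total per library moved the median of all genes with Th9 to 0.10 and gave 0.68 for Nrp2, -0.033 for Plxna1 and -0.10 for Plxnb2. It also gave 2252 genes higher and 794 lower, against 1937 and 1716, and 2 lower genes of the list against 4. With array weights the counts with Th9 were 3302 higher and 3326 lower, with 14 lower genes of the list. Without 1 library they ranged over 1015 to 2594 higher and 838 to 2742 lower, and over 8 to 21 and 3 to 13 for the list. With Th17, where 170 genes were higher and 56 lower, the counts were 20 lower at the same total, 345 and 102 at the same total without the RNA genes, and 1572 and 1789 with array weights. Without 1 library they ranged over 14 to 974 and 2 to 1378. The list count with Th17 was 0 higher at the same total, 2 without the RNA genes, and 8 higher and 6 lower with array weights, and without 1 library it ranged over 0 to 3 higher and 0 to 4 lower. The highest count of each of these ranges came without Th0 replicate 1. The cause of these changes was not tested. Correlations between same-numbered libraries were 0.199, -0.0161 and 0.241 with Th9, and -0.0625, -0.125 and 0.0495 with Th17. Replicates 1 and 3 of Th9 correlated best with their own number and replicate 2 did not, so the numbers were not taken to pair the samples. With the replicate block the counts were 2114 higher and 1962 lower with Th9 and 186 and 76 with Th17. Depth limits Sema3f most, at 42 to 140 reads a library.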

Other observations

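The tables' own annotation with the KEGG Axon guidance pathway, looked at after the values were seen, holds 135 listed genes other than the 6 in the table with Th9. Genes of the list above were not taken out of it, so its counts are not separate from those of the list. Its counts with 1 library left out were not made. Of 123 tested, 27 were higher (22%) and 14 lower (11.4%) by limma, against 13.4% and 11.9% of all genes tested, with a median log2 difference of 0.09. With Th17, 118 were tested, 3 were higher (2.54%) and 0 lower (16 and 11 at an unadjusted p under 0.05), against 1.19% and 0.39% of all genes.

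Genes within 100 kb were also looked at after the values were seen. Around Sema3f, 9 were tested with Th9 and 2 passed by limma, where 25.2% of all genes tested passed. Gnai2, which encodes an inhibitory G protein subunit, had a log2 difference of -0.48 (limma adjusted p = 0.0221), lost when any 1 library other than Th0 replicate 1 was left out (up to 0.0969) and at 0.160 with every library scaled to the same total. Ifrd2 had 0.33 (limma adjusted p = 0.0243), lost without any 1 Th9 library or Th0 replicate 3 (up to 0.119). None of the 9 around Sema3f passed with Th17 (0 at an unadjusted p under 0.05), where 1.58% of all genes tested passed. Around Nrp2, Plxna1 and Plxnb2, 1, 3 and 9 genes were tested with Th9 and 2, 3 and 9 with Th17, and none passed. At an unadjusted p under 0.05, 1 gene near Plxnb2 passed with Th9. Plxna4os2 is annotated antisense within the span of Plxna4, at chr6:32451170-32454750 on the plus strand. It had normalized counts of 32, 30 and 34 in Th9 libraries and 16, 8 and 5 in Th0 libraries, a log2 difference of 1.76 (standard error 0.38, limma adjusted p = 0.0053). In Th17 libraries it had 13, 11 and 8, against 17, 8 and 5 in Th0 libraries (0.21, limma adjusted p = 0.854). Since it is not stated that counting used strand, its reads cannot be told apart from those of Plxna4.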
